A study of Vanessa cardui and Junonia coenia with 16 samples.

Results

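The rows described here are the 150 most abundant transcripts of the painted lady butterfly Vanessa cardui whose level stayed within a narrow band in all 8 labelled wing libraries. A row of the deposited table is a gene-level unit of a transcriptome assembly, and its value in each library is in FPKM, a count of fragments divided by transcript length and library size. Of 74995 rows, 15043 were above 0 in all 8 libraries, and 3054 of these had a largest value under 2 times the smallest. The 150 with the highest mean FPKM were taken as members. Because the members were chosen from the same values that are described, differences among the 8 libraries are given with no test, and the narrow range itself is not a finding.

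The study sequenced poly(A) RNA from pupal wings of 2 species, wild type or labelled as knockouts of optix, a homeobox transcription factor gene known for its part in butterfly wing colour patterning. The groups used here are all V. cardui: 2 wild-type forewings, 2 optix knockout forewings with large defects and 2 optix knockout hindwings with large defects, all collected at what the labels call the melanin stage. The other 2 forewings, 1 with small and 1 with large defects, belonged to the same mosaic knockout animal, taken at the ommochrome stage. The rearing temperature was 27 °C for all 8 libraries. How many cells of a knockout wing carried the edited gene was not measured, and no wild-type hindwing of this species is analysed here, so wing is compared only among knockouts and stage only among wings labelled knockout.

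In most animal tissues a small set of messenger RNAs makes up a large part of the total. Some of these serve every cell, such as those for ribosomal proteins, translation factors, the cytoskeleton and mitochondrial energy production. Others belong to the tissue, and in a late pupal wing the scale cells secrete cuticle while they make pigment. The identifiers of the rows are not paired with genes in the files, and 0 were found in the table of 15000 V. cardui genes from RefSeq (assembly ilVanCard2.1). The members are therefore given by identifier, it is not known which of them serve every cell, and optix and markers of cell types are not analysed here.

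Library totals differed by genotype. Total FPKM reached 796362 and 909284 for wild-type forewings, and between 1076494 and 1199017 in the 6 libraries labelled knockout. The 10 most abundant rows of each library held 26.5% and 27.6% of total FPKM in the wild-type forewings and 34.6% to 39.4% in the other 6. Read depth is known only in relative terms, from the size of the smallest steps in the values: it was lowest in knockout forewing 1 and 3.03 times that in wild-type forewing 1, the deepest library, with the other 6 from 1.83 to 2.25 times. This estimate matched 25 of 28 library pairs within 0.05 (log2), and the worst pair was off by 1 (log2).

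The members spanned a wide range of abundance. Their mean over 8 libraries ran from 41866 FPKM down to 156 FPKM, with a median of 297 FPKM. There were 27 members above 1000 FPKM, 20 from 500 to 1000 FPKM and 103 at or below 500 FPKM. A handful dominated the sum: 5 members held over 50% of it, and the first 10 held 64.9%.

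Among the abundant rows, steadiness did not go with rank. Of the 10 most abundant rows of the species, 3 met the stability rule, against 26.7% of the rows at places 11 to 100, 32.0% at places 101 to 1000 and 29.2% at places 1001 to 5000. It was met less often further down, by 9.90% of the 12813 rows that averaged from 1 to under 10 FPKM. At or above the level of the last member there were 544 rows, so the members are 27.6% of the rows of their own abundance. The 394 others had a median largest-to-smallest ratio of 3.14, with quartiles of 2.56 and 4.56. Both sets divide on the ratio by definition, so these figures describe how far outside the band the rest lay.

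The most abundant member was c20540_g1, with a mean of 41866 FPKM. It was at 29553 and 25924 FPKM in the wild-type forewings, 49751 and 43686 FPKM in the knockout forewings, 50750 and 49178 FPKM in the knockout hindwings, and 38915 and 47172 FPKM in the small-defect and large-defect mosaic forewings. In FPKM both wild types lay below the other 6 libraries, and its ratio of 1.96 was close to the limit of the rule. As a share of total FPKM, wild-type forewing 1 (3.71%) lay above the small-defect mosaic wing (3.43%). The row kept place 2, 3 or 4 among all rows in every library.

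The second member, c26824_g5, was at 22965 and 21570 FPKM in the wild-type forewings, 35100 and 31641 FPKM in the knockout forewings, 29931 and 25644 FPKM in the knockout hindwings, and 36354 and 40675 FPKM in the small-defect and large-defect mosaic wings. In FPKM the wild types were again the lowest and the mosaic wings the highest. As a share of total, wild-type forewing 1 (2.88%) lay above both knockout hindwings (2.64% and 2.17%). The third, c22150_g1, was at 11349 and 11694 FPKM in the wild-type forewings, 15703 and 12735 FPKM in the knockout forewings, 17027 and 22290 FPKM in the knockout hindwings, and 14627 and 15420 FPKM in the small-defect and large-defect mosaic wings. Here the hindwings stood highest, although their 2 libraries also differed most from each other.

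Among the next members, c23674_g1 had the tightest replicates by genotype, at 5564 ± 40.3 FPKM (SD, n = 2) in the wild-type forewings and 8764 ± 186 FPKM (SD, n = 2) in the knockout forewings. It was at 9905 and 10710 FPKM in the small-defect and large-defect mosaic wings and at 7088 and 7518 FPKM in the hindwings, so all 4 pairs were separate in FPKM. As a share of total, the hindwings (0.624% and 0.636%) lay between the wild-type forewings (0.695% and 0.615%). The row c22603_g1 measured 5577 and 6103 FPKM for wild type and 10382 and 7148 FPKM for knockout forewings, whose replicates differed by more than the group means did. In the hindwings it was at 8092 and 5710 FPKM, and in the small-defect and large-defect mosaic wings at 8621 and 7905 FPKM.

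Other rows of the first 10 moved in different ways. The row c62623_g1 was the 1 member of these 10 with a clearly lower mean in the knockout forewings, at 5772 and 8190 FPKM in wild type against 5003 and 5782 FPKM, but 1 knockout value lay just above the lower wild-type value. It was at 5783 and 6865 FPKM in the hindwings and at 7469 and 7358 FPKM in the small-defect and large-defect mosaic wings. The row c24676_g3 was lowest in the mosaic pair, at 4250 and 4116 FPKM in the small-defect and large-defect wing, while the melanin-stage libraries ran from 4846 to 7524 FPKM.

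The row c46967_g1, with a mean of 5440 FPKM, was the steadiest of the 10. Its lowest value was 4793 FPKM in wild-type forewing 2 and its highest 6012 FPKM in the large-defect mosaic wing, a ratio of 1.25. Knockout and wild-type forewings overlapped, while both mosaic wings, the other at 5843 FPKM, lay above both knockout forewings (4851 and 5746 FPKM). The row c22804_g3 was set apart by 1 library, at 2973 FPKM in wild-type forewing 1 and between 4728 and 5924 FPKM in the other 7. The tenth, c20072_g1, measured 2889 and 2482 FPKM for wild type and between 3283 and 3900 FPKM in the 6 libraries labelled knockout. As a share of total it was highest in wild-type forewing 1, at 0.3628% beside 0.3623% in knockout forewing 2.

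**Figure D1:**
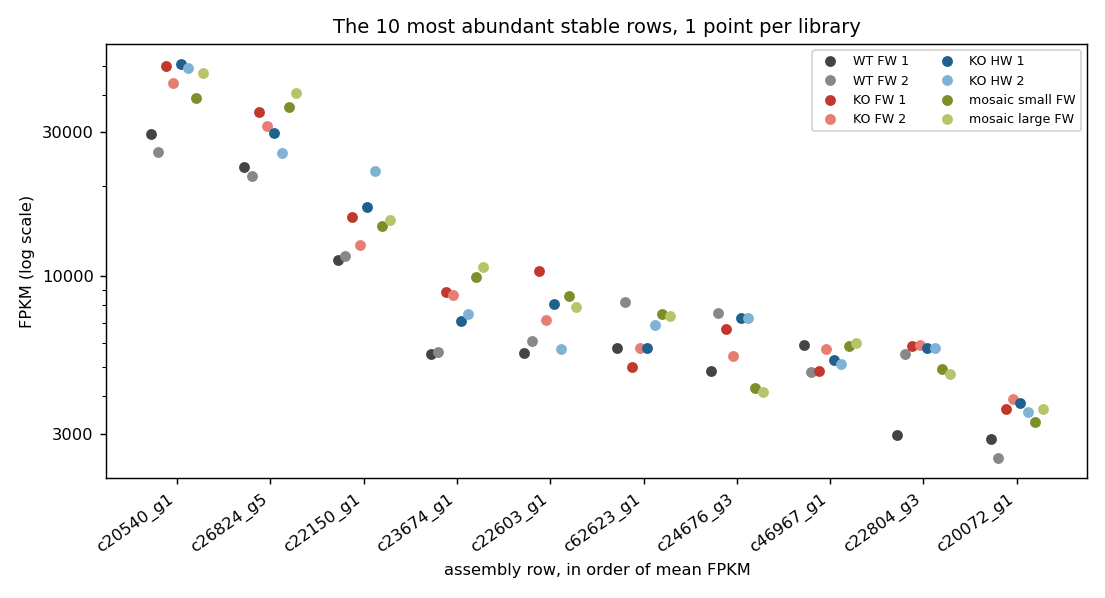
FPKM on a log scale for the 10 most abundant members, with 1 point for each of the 8 libraries (WT wild type, KO knockout, FW forewing, HW hindwing, mosaic small or large by defect size). The wild-type points lie lowest for c20540_g1, c26824_g5, c22150_g1, c23674_g1 and c20072_g1. As a share of total FPKM the wild types overlap the libraries labelled knockout in each of these rows. The row c46967_g1 stays between 4793 and 6012 FPKM.

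At the steady end of the whole list were c22416_g1, c26663_g3 and c46967_g1. The row c22416_g1 was at 220 and 203 FPKM in the wild-type forewings, 182 and 189 FPKM in the knockout forewings, 198 and 212 FPKM in the knockout hindwings, and 194 and 208 FPKM in the small-defect and large-defect mosaic wings. Its ratio of 1.21 was the lowest of the 150. The row c26663_g3 ran from 549 FPKM in wild-type forewing 1 to 674 FPKM in knockout forewing 2, a ratio of 1.23. Of all members, 41 kept a ratio under 1.5, 61 lay from there to under 1.8, and 48 were at 1.8 or above, 7 of them among the first 10.

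At the edge of the rule, the members nearest to the limit were c23673_g1, c25155_g2 and c25962_g3, with ratios of 1.992, 1.994 and 1.998. The rows just outside were c47876_g1, c23008_g1 and c16734_g1, with ratios of 2.0001, 2.0005 and 2.001. The row c47876_g1, at a mean of 3410 FPKM, would have been the tenth member had its ratio been slightly smaller. By abundance, the last member was c28153_g1 at 155.9 FPKM and the next row c18645_g1 at 155.1 FPKM.

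As a share of each library's total, the members together were almost level. They held 19.8% and 18.5% of total FPKM in wild type, 18.6% and 18.7% in the forewings of knockouts, 18.9% and 17.9% in the knockout hindwings, and 18.0% and 18.3% in the small-defect and large-defect mosaic wings. The mean was 18.6% ± 0.61 (SD over 8 libraries), and the highest library was 1.11 times the lowest. The size of the share depends on which of the most abundant rows are admitted: with members chosen anew it was 40.2% without wild-type forewing 1, and from 10.4% to 37.7% on the other scales. The group means, 19.2% ± 0.89 for wild type, 18.7% ± 0.09 in the knockout forewings and 18.4% ± 0.73 in the knockout hindwings (SD, n = 2 each), differed by less than the spread between the wild-type replicates.

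The parts of this total were less level. The first 3 members held 8.02% and 6.51% of the total for wild type and 8.60% and 8.18% for knockout forewings, with the hindwings and mosaic wings between 7.93% and 8.61%, so wild-type forewing 1 lay within the range of the others. Members 11 to 150 held 7.59% and 7.62% for wild type and 6.15% and 6.61% for knockout forewings, with the hindwings and mosaic wings between 5.93% and 6.53%. As a share of total, the wild types lay above the other 6 libraries without overlap for these 140 rows. In FPKM the same rows summed to less in both wild types than in any of the other 6. The sum of all 150 members was 157779 and 168653 FPKM in wild type and from 201759 to 218878 FPKM elsewhere. Over the same libraries the 394 other rows of like abundance went from 51.1% ± 1.796 in wild type to 60.4% ± 2.38 in the knockout forewings (SD, n = 2 each).

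**Figure D2:**
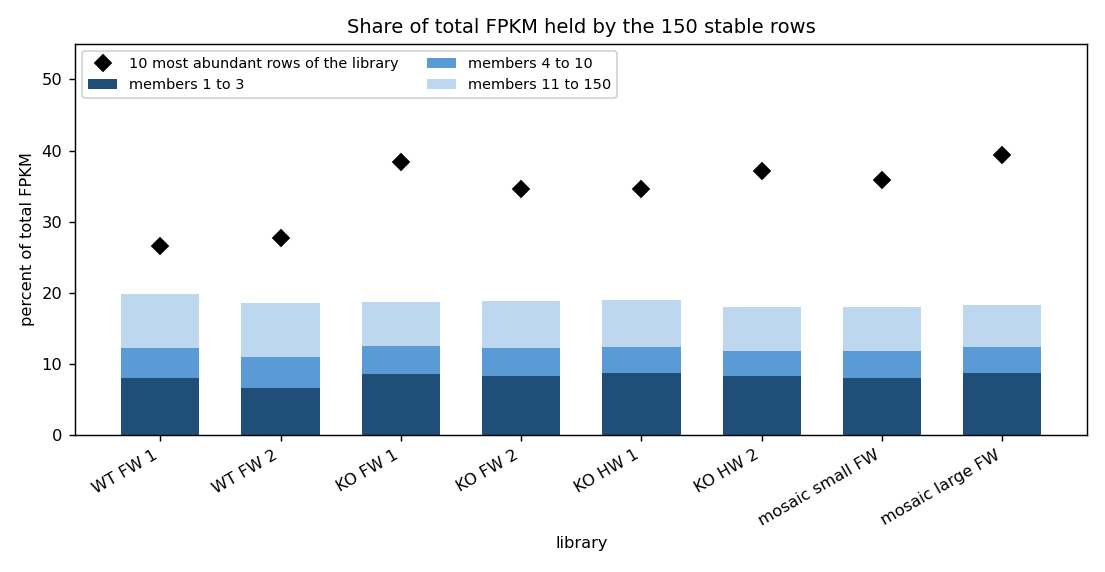
Percent of total FPKM held by members 1 to 3, 4 to 10 and 11 to 150 (stacked bars) in each library, with the share of the 10 most abundant rows of that library, members or not, as diamonds. The stacks end between 17.9% and 19.8%, while the diamonds lie at 26.5% and 27.6% in the wild-type forewings and from 34.6% to 39.4% elsewhere.

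Member ranks among all rows ran from place 2 to place 776, and all 150 stayed in the first 1000 rows of every library. Of these, 112 stayed in the first 500 and 20 in the first 100 of every library. The median ratio of a member's last to its first place was 1.51, beside a median ratio of 1.61 between its largest and smallest share of total FPKM. In single libraries the median rank ran from 302 in wild-type forewing 2 to 329.5 in the large-defect mosaic wing, and between 20 (knockout hindwing 2) and 33 (wild-type forewing 2) members were in the first 100.

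Within the band the members were not spread evenly over the libraries. Wild-type forewing 1 held the lowest value of 78 of the 150 members, and the median member lay 0.27 (log2) below its own mean there. The other 7 library medians lay between -0.01 and 0.14. These figures are in FPKM. As a share of total, wild-type forewing 2 was above wild-type forewing 1 by a median of 0.04 (log2) over the members. Of the 2904 further rows that met the rule, 21.9% were lowest in wild-type forewing 1. The members' highest values in FPKM fell most often in knockout hindwing 2 (42 members) and wild-type forewing 2 (32 members). Wild-type forewing 1 was also the library of greatest depth and of lowest total FPKM, and the part of these in the result was not tested.

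**Figure D3:**
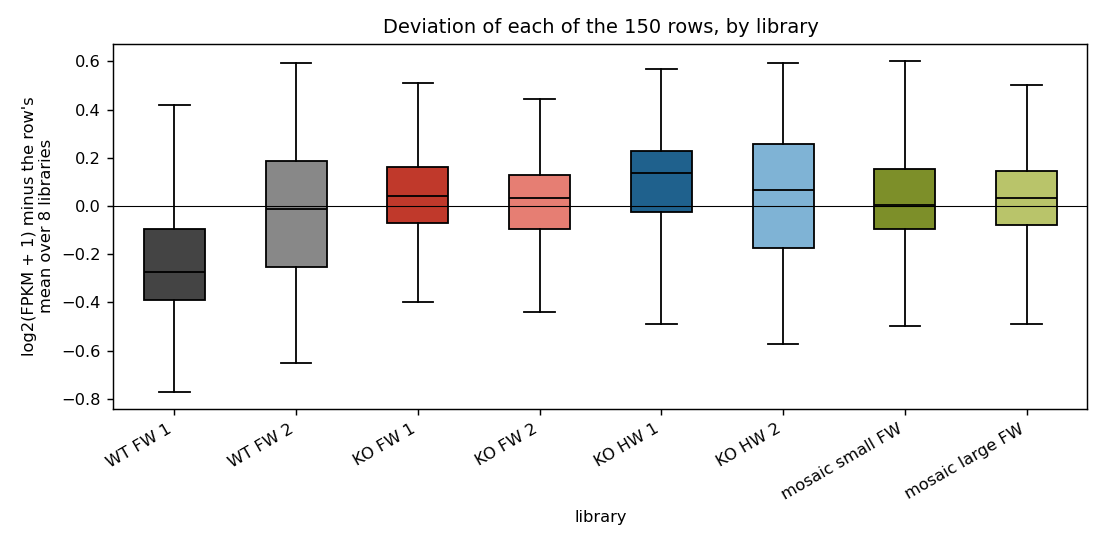
Log2(FPKM + 1) of each member minus that row's mean over 8 libraries, by library; boxes give the quartiles, the line the median and the whiskers the full range over 150 rows. The median is -0.27 in wild-type forewing 1 and between -0.01 and 0.14 in the other 7 libraries.

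The first comparison asks how the members differed between knockout and wild-type forewings. In FPKM the median member was 0.16 (log2 of FPKM + 1) higher in the knockouts, with 107 members higher and 43 lower and a range from -0.54 to 0.83. Over the 19001 rows that averaged at least 1 FPKM the median was -0.08, and over the 394 other rows of like abundance it was 0.40. The direction of the members' median depends on the scale: it was -0.24 as a share of total FPKM, -0.07 after quantile normalization, -0.04 with totals taken without the 10 most abundant rows and 0.15 with median-of-ratios scaling, which moved the median of all rows by -0.32, 0.16, -0.18 and -0.01.

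In FPKM the median difference by genotype was no larger than that between the wild-type replicates. The first is between means of 2 libraries and the second between single libraries, so they are not like for like. Wild-type forewing 2 was above wild-type forewing 1 in 112 of 150 members, by a median of 0.23 (log2), while the knockout forewings differed by a median of 0.01, with 77 members higher in the second. As a share of total the wild-type replicates differed by a median of 0.04, with 80 members higher in the second and 70 lower, beside the genotype median of -0.24 on that scale, with 27 members higher in the knockouts. Without wild-type forewing 1 the median difference of the same 150 members was 0.04, and without wild-type forewing 2 it was 0.30. Of the 394 other rows of like abundance, 53.3% were higher in both knockout forewings than in both wild types and 11.2% lower. Among members it was so in 53 (35.3%) and 16 (10.7%), against 25.1% and 31.7% of all rows that averaged at least 1 FPKM. The counts were 12 and 75 as a share of total FPKM, 21 and 39 after quantile normalization, 28 and 37 with totals taken without the 10 most abundant rows and 43 and 17 with median-of-ratios scaling, so the split turns over with the scale. All rows moved with the scale too, to 12.9% and 44.9%, 32.3% and 26.1%, 17.9% and 38.1%, and 23.8% and 32.9% in the same order.

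Differences varied with abundance in FPKM. The median was 0.51 (log2) over the first 10 members, 7 of which lay above wild type without overlap and 0 below (3 and 2 as a share of total, 1 and 3 after quantile normalization). It was 0.19 over members 11 to 50 and 0.12 over members 51 to 150. As a share of total the 3 medians were 0.11, -0.21 and -0.27, and after quantile normalization -0.26, -0.15 and -0.06, so neither the sign nor the order holds on every scale. The members furthest above wild type without overlap were c26746_g2, at 96.8 and 109 FPKM in wild type and 182 and 186 FPKM in the knockout forewings (log2 difference 0.83), and c162_g1, at 1225 and 1326 FPKM against 2288 and 2189 FPKM (0.81). Both kept their sign as a share of total, at 0.44 and 0.41.

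In the other direction stood c25450_g1, at 521 and 596 FPKM in wild type and 327 and 448 FPKM in the knockout forewings (log2 difference -0.54). It was at 307 and 321 FPKM in the knockout hindwings, and at 570 and 465 FPKM in the small-defect and large-defect mosaic wings. The lowest values were thus those of the 4 melanin-stage knockout libraries. The small-defect mosaic wing lay between the wild types, and the large-defect wing just above the higher knockout forewing. The row c23008_g2 measured 172 and 251 FPKM for wild type and 135 and 150.8 FPKM in the knockout forewings (-0.54), with hindwings at 143 and 133 FPKM and the small-defect and large-defect mosaic wings at 207 and 170 FPKM.

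**Figure D4:**
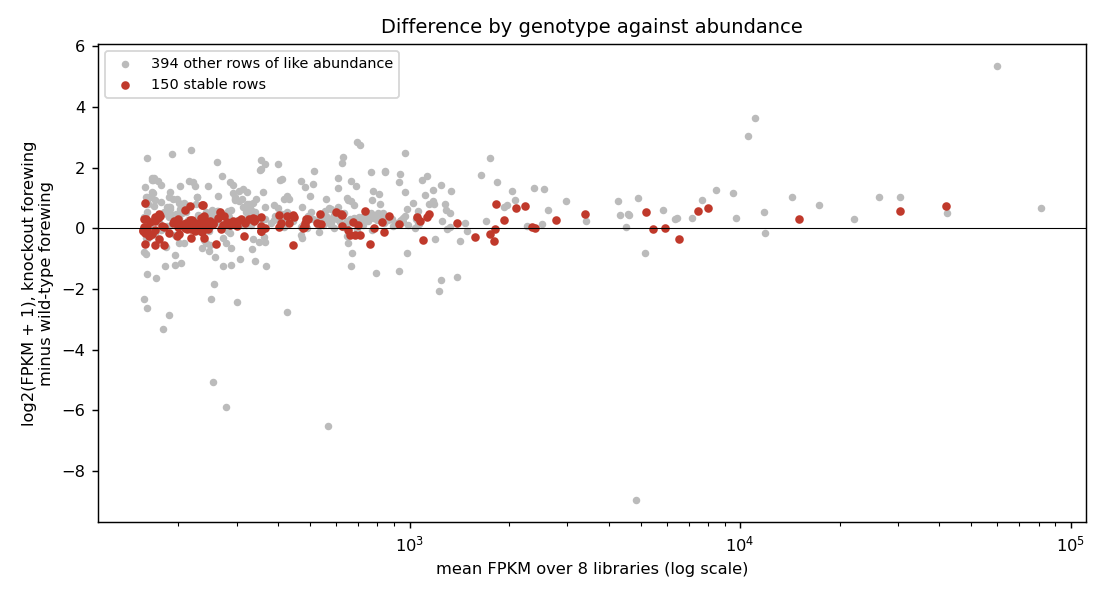
Difference of log2(FPKM + 1), knockout forewing minus wild-type forewing (means of 2 libraries each), against mean FPKM on a log scale for the 150 members (red) and the 394 other rows of like abundance (grey). The members lie between -0.54 and 0.83, as their choice fixes to under 1 on this scale, with the first 10 at a median of 0.51.

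The second comparison sets knockout hindwings against knockout forewings. The median member differed by 0.04 (log2, hindwing minus forewing), with 90 members higher, 60 lower and 103 within 1.2-fold. Other scales gave medians of -0.01 (share of total), -0.03 (quantile), -0.02 (without the 10 most abundant rows) and 0.17 (median-of-ratios), so no direction is given. The median absolute difference was 0.16, beside 0.16 between the hindwing replicates and 0.15 between the knockout forewing replicates. The first is between means of 2 libraries and the others between single libraries, which vary more. The values therefore do not show whether the wings differed by more than replicates. Of the 394 other rows of like abundance, 36.0% were higher in both hindwings than in both forewings and 17.3% lower. Among members it was so in 50 (33.3%) and 26 (17.3%), against 14.6% and 21.4% of all rows that averaged at least 1 FPKM. As a share of total the members' counts were 36 and 21, where all rows gave 13.1% and 21.7%. These counts were 63 and 11 with median-of-ratios scaling, 30 and 30 after quantile normalization and 30 and 33 with totals taken without the 10 most abundant rows, where all rows gave 18.4% and 18.1%, 19.1% and 17.8%, and 12.1% and 24.6%.

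The member with the largest wing difference was c26028_g2, at 223 and 220 FPKM in the knockout hindwings and 132 and 117 FPKM in the knockout forewings (log2 difference 0.83). The wild-type forewings, at 166 and 129 FPKM, and the small-defect and large-defect mosaic forewings, at 150.7 and 166 FPKM, were also below both hindwings. Next came c18171_g1, at 289 and 296 FPKM in the hindwings and 224 and 177 FPKM in the knockout forewings (0.55). It too was higher in both hindwings than in any of the 6 forewings, where it reached 240 FPKM in the large-defect mosaic wing.

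Lower in the hindwings was c27993_g1, at 361 and 289 FPKM against 421 and 524 FPKM in the knockout forewings (log2 difference -0.54). Its wild-type forewings, at 333 and 354 FPKM, lay between the hindwing values, so the hindwings did not stand apart from wild type. The row c48341_g1 was at 135 and 116 FPKM in the hindwings and 140 and 214 FPKM in the knockout forewings (-0.47), with the knockout replicates further apart than the groups' nearest values. In all, both hindwings were above the 6 forewings in 26 members (17.3%) and below them in 8 (5.33%), against 14.5% and 4.31% of the 394 other rows of like abundance. Both wild-type forewings were below the other 6 libraries in 32 members (21.3%) and above them in 8 (5.33%), against 37.3% and 6.85% of those rows. Over all 3054 rows meeting the stability rule, the hindwings were above in 9.63% and below in 6.09%. The wild types were below in 16.9% of them and above in 5.76%. These counts were made in FPKM only, and not over all rows that averaged at least 1 FPKM.

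The third comparison sets the ommochrome-stage mosaic forewings against the melanin-stage knockout forewings. The mosaic pair shares 1 animal and differs in defect size, so stage and individual cannot be told apart. The members were balanced, with a median difference of 0.00 (log2), 76 higher and 74 lower, and 112 within 1.2-fold. Medians on the other scales were -0.05 (share of total), -0.06 (median-of-ratios), -0.03 (without the 10 most abundant rows) and 0.00 (quantile). Of the 394 other rows of like abundance, 33.8% were higher in both mosaic wings than in both knockout forewings and 26.6% lower. Among members it was so in 41 (27.3%) and 40 (26.7%), against 21.8% and 17.5% of all rows that averaged at least 1 FPKM. With median-of-ratios scaling the counts were 22 and 43, and as a share of total 32 and 53, where all rows gave 20.3% and 19.4%, and 18.1% and 19.4%. After quantile normalization they were 36 and 35, where all rows gave 20.4% and 19.8%. Totals taken without the 10 most abundant rows gave 35 and 44, beside 20.1% and 18.8% of all rows.

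Single members differed between the mosaic pair and the knockout forewings. The row c20557_g1 was at 890 and 893 FPKM in the small-defect and large-defect mosaic wings and at 538 and 555 FPKM in the knockout forewings (log2 difference 0.70). It was at 571 and 700 FPKM in the wild-type forewings, but knockout hindwing 2 reached 935 FPKM beside 574 FPKM in hindwing 1. The row c28088_g3 was higher in both mosaic wings, at 417 and 388 FPKM, than in any melanin-stage library, where it ran from 242 to 281 FPKM (0.54 against knockout forewings).

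Lower in the mosaic pair was c26433_g1, at 526 and 437 FPKM in the small-defect and large-defect mosaic wings and 789 and 821 FPKM in the knockout forewings (log2 difference -0.75). Its other values did not follow stage, since wild-type forewing 1 was at 488 FPKM and knockout hindwing 2 at 450 FPKM. The row c26440_g2 measured 222 and 230 FPKM for the mosaic wings and 338 and 327 FPKM in the knockout forewings (-0.56). Wild-type forewings, at 267 and 237 FPKM, and knockout hindwing 2, at 222 FPKM, were near the mosaic values.

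Between the large-defect and the small-defect wing of the mosaic animal, with 1 library each and no replicate check, the members were closest. The median difference was 0.03 (log2, large minus small), 135 of 150 members were within 1.2-fold, and 1 member in each direction was past 1.5-fold. The rule, under 2 times over libraries that include both wings, itself limits how many members could pass 1.5-fold. Of the 394 other rows of like abundance 2.28% were higher and 5.58% lower past that limit. Of all rows that averaged at least 1 FPKM it was 9.61% and 20.1%. The median was 0.14 with median-of-ratios scaling and -0.05 as a share of total. The member past 1.5-fold upward was c19457_g1, at 183 FPKM in the large-defect and 122 FPKM in the small-defect wing, and the one downward was c25203_g1, at 195 and 305 FPKM.

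Whether the same rows stay in their band in libraries that did not choose them was described by repeating the choice without a library. Rows chosen on 7 libraries stayed under 2 times in the eighth in 148 of 150 cases for the small-defect mosaic wing, 148 for the large-defect wing, 147 for knockout forewing 2, 146 for knockout forewing 1 and 141 for knockout hindwing 1. The count was lower for wild-type forewing 2 (127), wild-type forewing 1 (110) and knockout hindwing 2 (101). Membership thus changed most on leaving out these 3 libraries. Chosen on the 6 melanin-stage libraries, 141 of 150 rows stayed under 2 times in both mosaic wings. Chosen on the 4 melanin-stage forewings, 61 of 150 stayed under 2 times across the hindwings and mosaic wings as well.

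The same was asked on a measure that also applies to rows not chosen, whether the left-out value lay within 1.5-fold of the geometric mean of the other 7. In wild-type forewing 1 this was so for 67.3% of chosen rows and 31.6% of equally abundant rows that were not chosen. In knockout hindwing 2 it was 67.3% and 37.1%, and in the small-defect mosaic wing 98.7% and 84.0%. In all 8 libraries the share was higher among the chosen rows. Rows not chosen had varied more among the other 7 libraries, so this describes how spread in 7 libraries went with departure in the eighth.

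**Figure D5:**
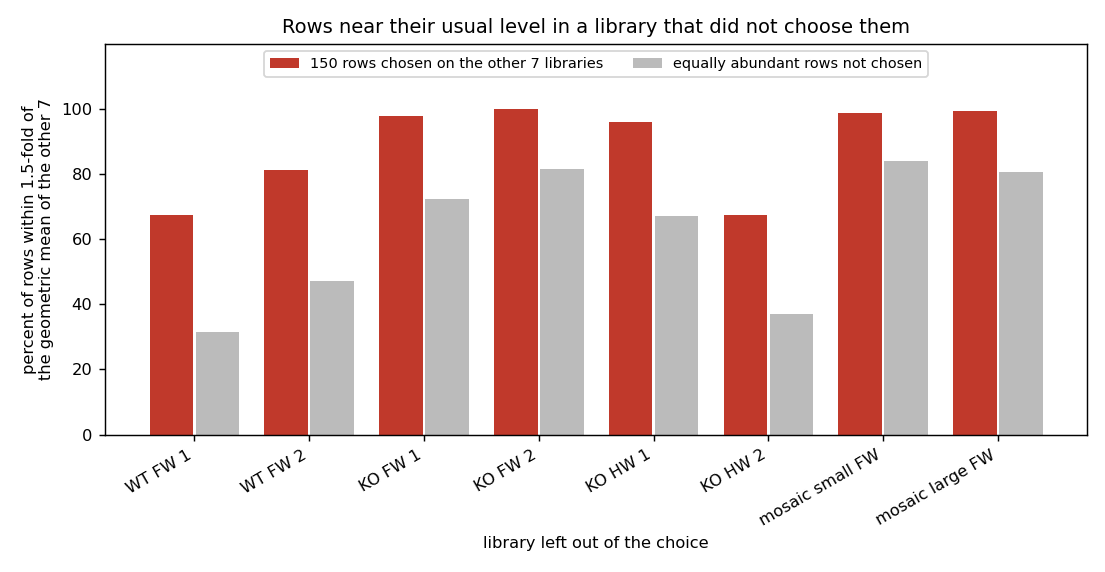
Percent of rows within 1.5-fold of the geometric mean of 7 libraries in the library left out, for the 150 rows chosen on those 7 (red) and for equally abundant rows not chosen (grey). The red bars run from 67.3% (wild-type forewing 1 and knockout hindwing 2) to 100% (knockout forewing 2) and the grey bars from 31.6% to 84.0%.

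The choice of rows also rests on how libraries are scaled. Of the 150 members, 120 stayed under 2 times as a share of total FPKM, 126 after quantile normalization, 140 with totals taken without the 10 most abundant rows and 111 with median-of-ratios scaling. When the rule was applied anew on those scales, 92, 80, 112 and 111 of the 150 were chosen again. Of the first 10 members, 8 stayed under 2 times as a share of total and 5 with median-of-ratios scaling.

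A feature the rule did not use is the assembly component, the c number that rows of related sequence share. Of the members, 68 (45.3%) were the only row above 0 in their component, close to the 49.5% of the other rows of like abundance and 51.3% of all rows that averaged at least 1 FPKM. The remaining 82 shared a component with other rows, between which reads may have been divided. For 68 of these 82 the sum over the component was also under 2 times. Over all members, those alone in their component included, 120 held over 90% of their component's sum. Such a sum is nearly the member's own value, which was chosen to be under 2 times. The 68 of 82 therefore cannot show whether a division of reads affected the choice.

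Other rows of the members' components were seldom in the band themselves. Of 27 such rows between 10 FPKM and the level of the last member, 2 (7.41%) met the stability rule. Over all 951 rows in that range that were not the most abundant of their component, 184 (19.3%) did, and over all 5644 rows in the range 28.7%. No test of this difference was made.

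The component c26824 shows the contrast at high abundance. Its member c26824_g5 kept a ratio of 1.89, while its neighbour c26824_g1 had a ratio of 2.83. The neighbour was at 19119 and 13200 FPKM in the wild-type forewings, 18821 and 20949 FPKM in the knockout forewings, 15622 and 16686 FPKM in the knockout hindwings, and 34907 and 37344 FPKM in the small-defect and large-defect mosaic wings. It was thus higher in both mosaic wings than in any melanin-stage library, and the sum of the component, from 34783 to 78037 FPKM, was outside the band with a ratio of 2.24. The component c26440 was the only one with a pair of members, c26440_g2 and c26440_g4, with means of 274 and 218 FPKM.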

How the data were processed

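Poly(A) RNA-seq libraries of 36 bp paired-end reads were used, amplified with 15 PCR cycles per the labels' protocols. The authors deposited FPKM per assembly row. Bowtie2 was used per the submitters' processing notes. Its version, the assembler, the counting program and any further scaling were not given in the sources used here. Each value divides by the library's total, so a few abundant transcripts move all others. Groups follow the sample titles. Per the file headers, 2 columns match no labelled sample and were not used. The labels call libraries of a group biological replicates.

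From the FPKM values, members, shares of total, ranks and differences of log2(FPKM + 1) between group means were computed (Python 3.11.15, pandas 2.3.3, numpy 2.4.6, SciPy 1.17.1). The stability rule, the differences, the calls of groups that do not overlap and median-of-ratios scaling were tested on simulated data. A group stands apart where its values do not overlap the other's. No test was run on members, since the rule used every library; 2 libraries against 2 allow no exact two-sided p under 0.333. The members and lists were chosen with earlier results of these data known. Named rows are the 10 of highest mean, the 3 nearest each side of the ratio limit, the last member and the next row, the 3 of smallest ratio, and per comparison the 2 largest separated differences each way; rows of shared components were chosen after their values were seen. Sequences of these rows are not used here. Relative depth came from ratios of values under 0.6 FPKM. Alternatives changed the scaling, ratio limit, number of members, pseudocount, filter, unit and libraries; the share-of-total scale was added after seeing the data.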

Additional observations from a re-analysis of the deposited data

How the results depend on the processing

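No paired analysis was possible outside the mosaic animal, because the labels do not tie replicate numbers to animals. Its 2 wings were compared with each other, and no result comes from a test. The 6 results were recomputed under 21 alternatives with the members chosen anew, and 98 of 124 values moved by less than the spread between replicates (0.11 log2 for medians, 0.67 percentage points for the share), or, for the count of rows, by less than 1.5 times. The 0.11 pools all replicate pairs and comes mostly from wild type, with library medians of -0.27 and -0.01. It was also used for medians without wild type, so a wing median of 0.13 with median-of-ratios scaling, against 0.04, counts as unmoved. Some of the 98 could not move, such as the count of rows with another number of members or pseudocount. The count of rows meeting the rule, 3054, was 707 with a ratio under 1.5, 6643 with a ratio under 3 and 6140 on the 4 melanin-stage forewings. The members' mean share, 18.6%, follows which of the most abundant rows enter: it was 10.4% with median-of-ratios scaling, 35.1% with totals without the 10 most abundant rows, 37.5% with quantile normalization, 37.7% as a share of total, 3.09% with a ratio under 1.5, 47.1% with a ratio under 3, 17.1% with 75 members, 20.2% with 300, 17.6% for component sums, 22.0% on 6 melanin-stage libraries, 38.7% on 4 forewings, and 18.7% (without knockout forewing 1) to 40.2% (without wild-type forewing 1) without 1 library. The genotype median, 0.16, reversed to -0.10 as a share of total, and was 0.038 with totals without the 10 most abundant rows, 0.0058 with quantile normalization, 0.27 with a ratio under 3, 0.28 on 4 forewings, and 0.099 (without wild-type forewing 1) to 0.32 (without wild-type forewing 2) without 1 library. On the 4 forewings the wing, stage and defect-size medians were 0.34, 0.26 and 0.15. The cause of these changes was not tested. With the 150 members kept, the genotype median was -0.24, -0.066 and -0.040 as a share of total, with quantile normalization and with totals without the 10 most abundant rows. Depth per library is known only relatively, so no counting interval is given, and 2 libraries per group limit every comparison.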

Other observations

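Below the 150 members, 2904 further rows met the stability rule. Their means ran from 155 FPKM down to 0.31 FPKM, with a median of 11.8 FPKM, and together they held 5.48% to 7.39% of total FPKM in the 8 libraries. Their median differences were 0.08 (log2) by genotype, -0.01 by wing and 0.03 by stage. Wild-type forewing 1 held the lowest value of 21.9% of them, where it held that of 78 of the 150 members. The steadiest was c57605_g1, at 11.3 and 11.4 FPKM in the wild-type forewings, 12.0 and 11.5 FPKM in knockout forewings, 11.8 and 11.4 FPKM in knockout hindwings, and 11.5 and 11.6 FPKM in the small-defect and large-defect mosaic wings, a ratio of 1.07.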
